A study of Mus musculus with 78 samples.

Results

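The pericyte and smooth muscle genes Rgs5, Acta2, Higd1b, Mgp, Myh11, Tagln, Cspg4, Pdgfrb, Kcnj8 and Abcc9, known markers of the mural cells of blood vessels, were followed across cells sorted from the adult mouse retina. Each of the 10 genes was represented by 1 probe set that the probe table assigned to that gene alone, out of 19301 genes named in this way. The study measured gene expression in fluorescent cells of 22 transgenic lines, with 200 cells sorted into each sample after a papain dissociation of 15 min. It comprised 78 arrays in 26 sets of 3 biological replicates, and the Arc and b2 lines were each measured in 3 sets. The labels placed 3 lines among photoreceptors, 1 among horizontal cells, 4 among bipolar cells, 9 among amacrine cells, 4 among ganglion cells and 1 among microglia.

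All arrays carried the same label of genetic background, a mix of C57BL/6J with FVB/N-Swiss Webster hybrid. The mice that came from the MMRRC carried a recessive mutation for photoreceptor degeneration before they were crossed to C57BL/6J, and their F2 offspring were used. The Rgs5 line, Tg(Rgs5-EGFP)24Gsat, expressed green fluorescent protein under an Rgs5 transgene and was labelled as Rgs5 amacrine cells. The Grik4 line was C57BL/6-Tg(Grik4-Cre)G32-4Stuj crossed to Rosa26-LSL-RFP, in which Cre switches on a red fluorescent protein, and was labelled as ganglion cells. The Drd4 line, Tg(Drd4-EGFP)W18Gsat/Mmnc, was also labelled as ganglion cells, and its fluorophore label read RFP although the transgene is named for EGFP. The Crh line was Tg(Crh-Cre)282Gsat/Mmnc crossed to Rosa26-LSL-RFP and labelled as amacrine cells. These 4 lines shared batch label 3 with the Arc 3rd set, of Tg(Arc-EGFP)194Gsat/Mmcd, and with the Igfbp2 set, of Tg(Igfbp2-EGFP)17Gsat, both green amacrine sets. Other lines named below are Lhx4, Tg(Lhx4-EGFP)199Gsat, Pcp2, B6:FVB-Tg(Pcp2-EGFP)2Yuza, and Kcng4, B6Cf1-Tg(Kcng4-CreERT2, #)BR with Rosa26-LSL-RFP (bipolar cells), Opn4, mOpn4-Cre1D4 with Rosa26-LSL-RFP (melanopsin ganglion cells), b2, b2-Cre with Rosa26-LSL-RFP (rods), Chrnb4, Tg(Chrnb4-EGFP)1Gsat (cones), and the amacrine lines Fbxo32, Tg(Fbxo32-EGFP)138Gsat/Mmcd, and Chrna3, Tg(Chrna3-EGFP)BZ135Gsat/Mmnc. Also named below, without their transgenes, are the PV ganglion, Csf2rb2 microglia and Fam81a amacrine lines (GFP) and the d4 photoreceptor line (RFP). A transgene marks every cell in which its promoter or its Cre has been active, so a sort on fluorescence need not return a single cell type.

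Pericytes wrap the capillaries of the retina, where they are unusually dense, and vascular smooth muscle cells form the contractile coat of arterioles and venules. Both hold the vessel wall together, set its diameter and help to keep the blood-retina barrier tight. They depend on platelet-derived growth factor from the endothelium, which acts on the receptor encoded by Pdgfrb. None of the neurons, glia or microglia for which the lines were labelled is a mural cell.

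Promoter sequence was held in the RefSeq table (build GRCm38.p6) for 5 of the 10 genes, Rgs5, Acta2, Cspg4, Kcnj8 and Abcc9. The 150 bases before the start site are printed below for a contractile gene and a signalling gene that varied widely between lines (Acta2, Rgs5) and for the neighbouring pair of channel genes, of which Kcnj8 varied widely and Abcc9 little. They run 5′ to 3′ along the gene, at chr19:34255374-34255523 (minus strand) for Acta2, chr1:169655351-169655500 (plus strand) for Rgs5, chr6:142571615-142571764 (minus strand) for Kcnj8 and chr6:142702275-142702424 (minus strand) for Abcc9. Capitals mark the matches to the motifs searched.
Acta2: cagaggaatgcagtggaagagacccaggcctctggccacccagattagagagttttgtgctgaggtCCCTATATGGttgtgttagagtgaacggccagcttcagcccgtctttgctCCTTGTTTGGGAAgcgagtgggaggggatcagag
Rgs5: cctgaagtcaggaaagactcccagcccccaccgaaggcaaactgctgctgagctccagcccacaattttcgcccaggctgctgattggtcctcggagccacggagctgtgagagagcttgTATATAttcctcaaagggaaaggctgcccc
Kcnj8: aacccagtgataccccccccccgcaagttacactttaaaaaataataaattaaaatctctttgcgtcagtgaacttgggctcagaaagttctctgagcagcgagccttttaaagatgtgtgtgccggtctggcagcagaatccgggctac
Abcc9: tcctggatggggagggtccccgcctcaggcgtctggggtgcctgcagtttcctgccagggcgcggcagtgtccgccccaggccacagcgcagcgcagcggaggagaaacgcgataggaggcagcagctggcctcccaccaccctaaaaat

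Both strands of these windows were searched for the CArG box, through which serum response factor acts on contractile genes, for the same box with 1 core base other than A or T, for TGGGAA, the core of the site bound by the Notch effector Rbpj, and for TATATA. The Acta2 window held no strict CArG box and 2 of the relaxed form, from 84 to 75 and from 34 to 25 bases before the start. It also held TGGGAA from 27 to 22 bases before the start, which overlaps the second of these boxes. The Rgs5 window held TATATA from 30 to 25 bases before the start, and the Kcnj8, Abcc9 and Cspg4 windows held none of the 4 motifs. Over 32851 promoter windows of the same 150 bases, 0.916% held the strict CArG box, 5.1% the relaxed form, 13.1% TGGGAA and 2.97% TATATA. A match describes the letters and is not evidence of a bound site. The RefSeq annotation places Kcnj8 and Abcc9 next to each other, with 0 genes between them.

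The deposited values were intensities, and the 78 arrays had identical distributions with a median of 9.01. Values at or under 3.99 were treated as having no reliable order, and this floor held 2.18% of the values of the 10 genes, namely 16 Tagln arrays and 1 Acta2 array. A gene was tested where its mean in at least 1 set exceeded the median of 9.01. This left 15102 genes and 9 of the 10, because no set mean of Pdgfrb passed it. Acta2 and Tagln passed in 3 sets and Higd1b in 4, and those were the sets in which they stood highest, so that for these genes passing the filter and differing between lines are not separate facts. A difference was called at an adjusted p (limma, Benjamini-Hochberg over all genes tested in a comparison) below 0.05 and a log2 difference of at least 1. Intensities of different probe sets are not on a common scale, so no gene was ranked against another by level. Where intensities of a marker list were summed, the sum was compared only between arrays, and the brightest probe sets weigh most in it. The mean correlation of an array with the other arrays of its set had a median of 0.919, and 6 arrays lay below 0.8, among them Lhx4 replicate 1 and Crh replicates 1 and 2.

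The genes fell into a group that varied widely over the 22 lines and a group that varied less. Between the lowest and the highest line mean, Mgp spanned 4.98, Rgs5 4.94, Higd1b 4.75, Acta2 4.24, Kcnj8 3.06 and Tagln 1.98 log2 units. Myh11 spanned 1.34, Cspg4 1.23, Pdgfrb 0.60 and Abcc9 0.57. The Rgs5, Grik4 and Drd4 lines held the 3 highest line means of Rgs5, Acta2, Higd1b, Mgp, Tagln and Kcnj8 in varying order. Crh came next for Rgs5, Higd1b and Tagln. Kcnj8 also varied over the 18 lines other than these 4, from 6.87 to 27.9 in Pcp2, close to 28.8 in Drd4.

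**Figure D1:**
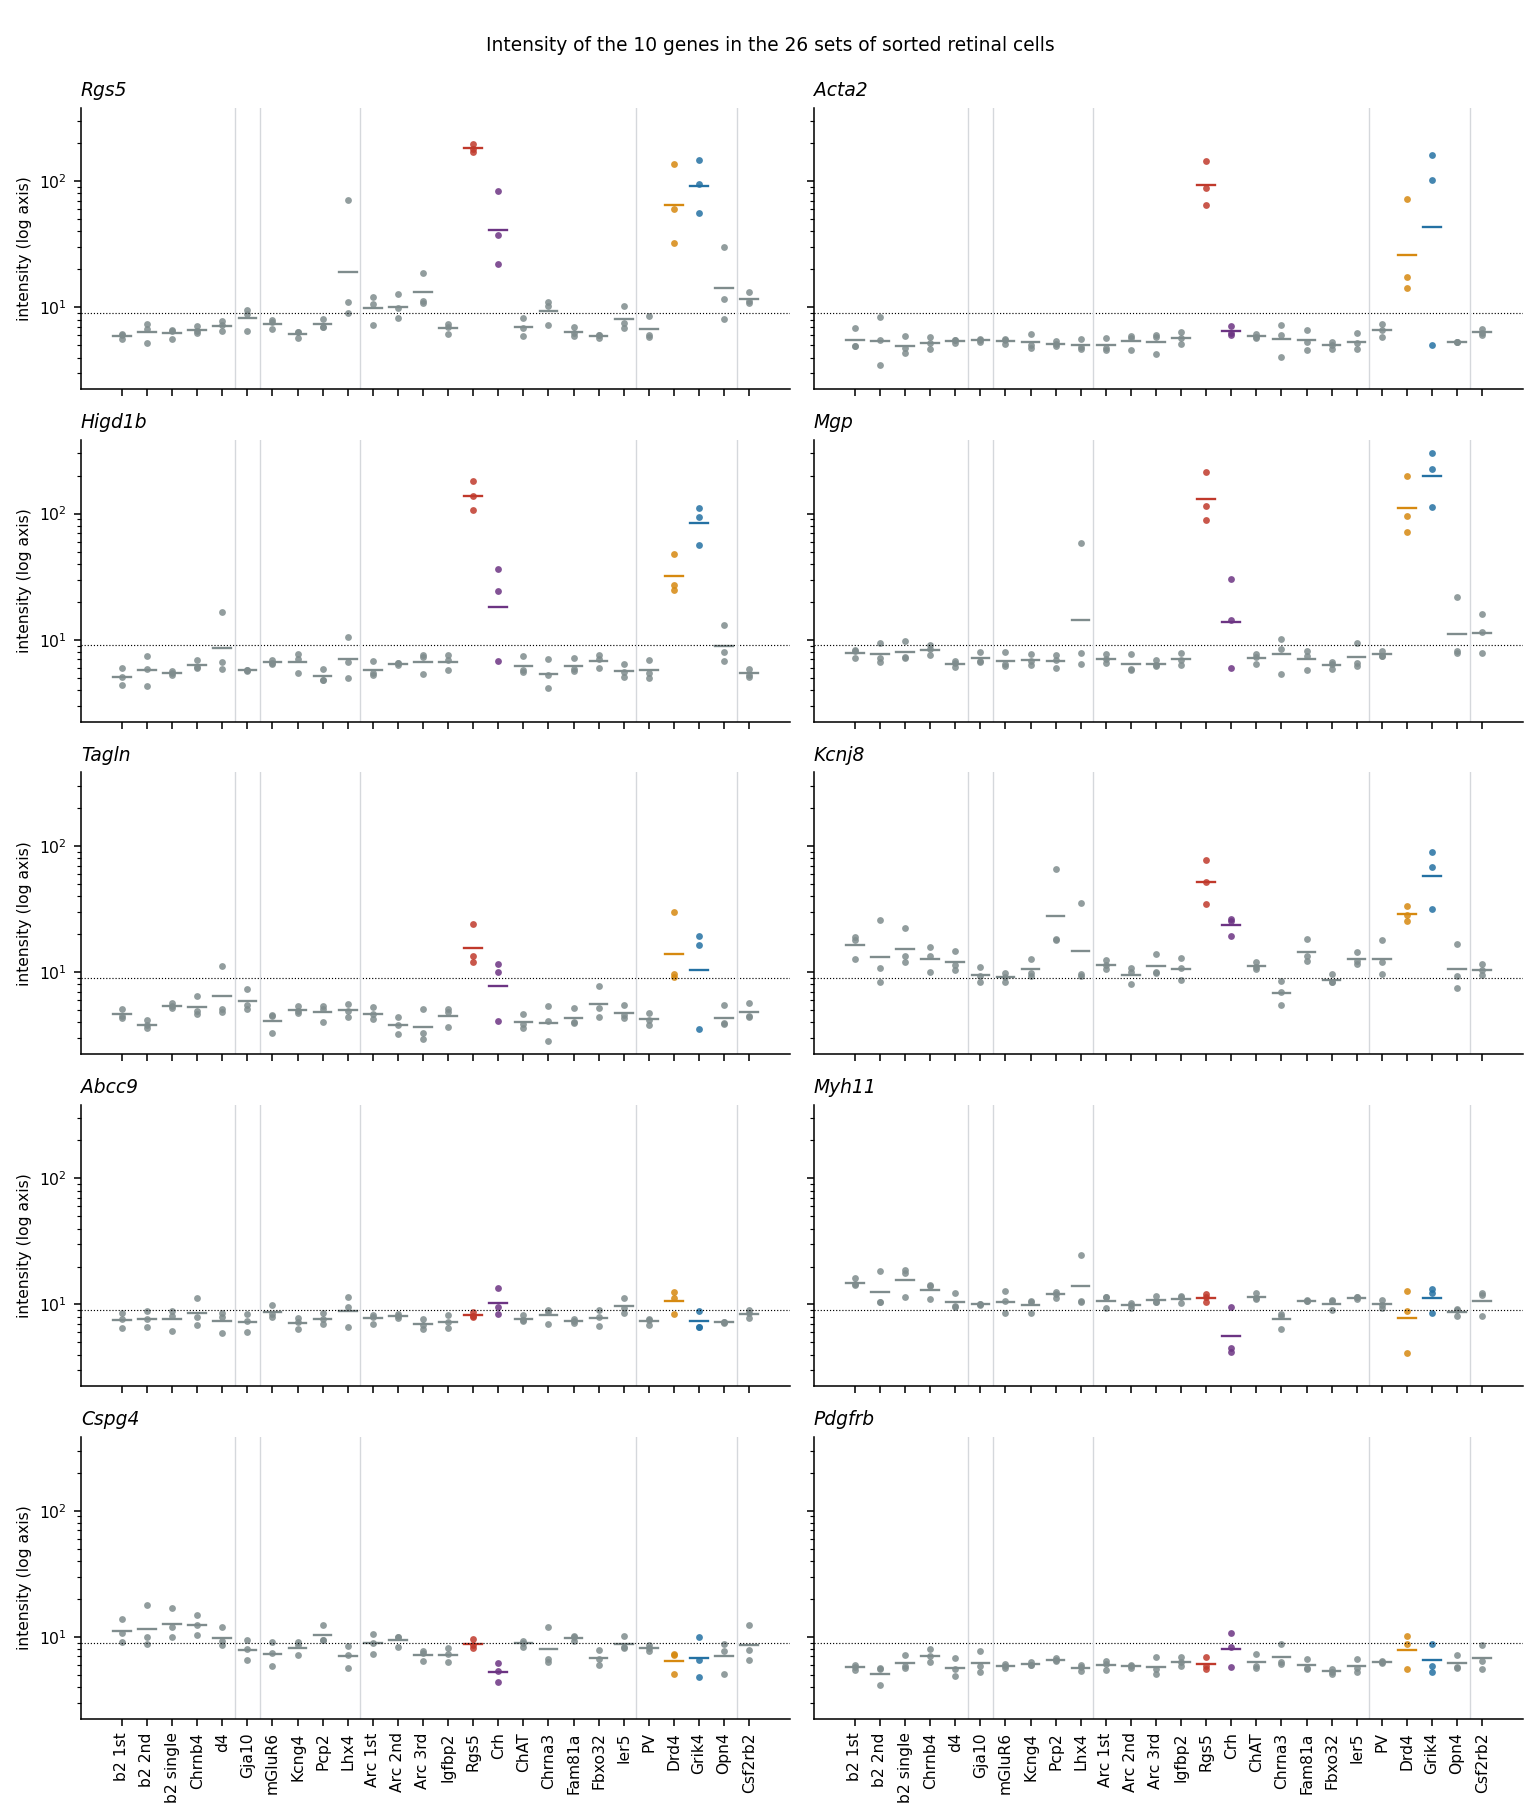
Intensity (log axis) of the 10 genes in the 26 sets; points are arrays, bars are set means (of log2 values), the dotted line is the median of all values (9.01), and vertical lines part photoreceptor, horizontal, bipolar, amacrine, ganglion and microglia sets. Coloured sets are Rgs5 (red), Crh (purple), Drd4 (orange) and Grik4 (blue). The genes Rgs5 and Higd1b stand high in the coloured sets, and Mgp in those of Rgs5, Drd4 and Grik4 but not in Crh. Abcc9, Myh11, Cspg4 and Pdgfrb vary less between sets.

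Rgs5, a regulator that speeds the switching off of G protein signals and a widely used pericyte marker, was read at 199, 171 and 179 in the 3 arrays of the Rgs5 line. It was read at 95.5, 148 and 55.7 in the Grik4 line, at 138, 59.9 and 32.6 in the Drd4 line and at 22.0, 83.5 and 37.8 in the Crh line. In the 66 arrays of the other 18 lines the lowest value was 5.23, the median 7.24 and the highest 70.6. The 3 arrays of the Rgs5 line lay above all other arrays of the series, and every array of the other 3 lines lay far above that median. The value of 70.6 belonged to Lhx4 replicate 1, whose companions read 11 and 8.96. Against the mean of the other 21 lines the log2 difference was 4.07 (SE 0.30, adjusted p = 1.9e-15) in the Rgs5 line, the line whose transgene carries this gene's name.

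Higd1b, a gene named for its hypoxia-induced domain and enriched in pericytes, read 106, 181 and 138 in the Rgs5 line, 94.3, 110 and 56.4 in the Grik4 line and 47.7, 24.8 and 27.3 in the Drd4 line. The Crh arrays read 6.82, 36.4 and 24.6, so that replicate 1 was at the level of the other 18 lines, which ranged from 4.16 to 16.4 with a median of 5.91. Higd1b thus followed the order of Rgs5, with the Rgs5 line highest.

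Mgp encodes matrix Gla protein, a secreted inhibitor of calcification made by smooth muscle and other vessel cells. It read 213, 89.5 and 115 in the Rgs5 line, 224, 304 and 114 in the Grik4 line and 199, 95.95 and 71.3 in the Drd4 line. The arrays of these 3 lines overlapped one another and lay above all 66 arrays of the other 18 lines (lowest 5.35, median 7.25, highest 58.6). The highest of these was again Lhx4 replicate 1, with 6.43 and 7.90 in its companions.

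Acta2 encodes smooth muscle actin and Tagln encodes transgelin, an actin-binding protein of contractile cells. Acta2 read 87.7, 65.2 and 145 in the Rgs5 line, 4.98, 103 and 161 in the Grik4 line and 72.4, 14.3 and 17.3 in the Drd4 line. The other 18 lines stayed between 3.51 and 8.36 with a median of 5.43, and Crh between 6.02 and 7.12. Grik4 replicate 1 was therefore within the range of the other 18 lines, although its Rgs5, Higd1b and Mgp values were high. Tagln repeated this within Grik4, with 3.56, 19.3 and 16.4, and read 23.9, 11.99 and 13.3 in the Rgs5 line and 30.0, 9.68 and 9.17 in the Drd4 line. Both contractile genes were thus low in the same Grik4 array.

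Kcnj8 encodes the pore subunit of a potassium channel gated by ATP, and Abcc9 its sulfonylurea receptor subunit. Together the 2 subunits form the vascular form of that channel. Kcnj8 read 51.5, 34.8 and 77.8 in the Rgs5 line, 88.9, 67.7 and 31.5 in the Grik4 line, 33.2, 28.4 and 25.3 in the Drd4 line and 25.4, 19.4 and 26.6 in the Crh line. The other 18 lines had a median of 10.9 and a highest array of 66.0, which was Pcp2 replicate 2 (17.9 and 18.3 in its companions). Abcc9 read 7.93, 8.75 and 8.11 in the Rgs5 line and 8.94, 6.66 and 6.61 in the Grik4 line, within the range of 5.92 to 11.4 of the other 18 lines. In the Drd4 line Abcc9 read 12.5, 11.3 and 8.34 and in the Crh line 8.38, 13.6 and 9.60, the highest line means of this gene (10.6 and 10.3). The pore gene was thus high in the Rgs5 and Grik4 lines, where Abcc9 was not, while in Drd4 and Crh the means of both stood above their medians over the other 18 lines, without a call for Abcc9.

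Myh11, the heavy chain of smooth muscle myosin, read 10.5, 11.4 and 12.1 in the Rgs5 line, against a median of 10.7 in the other 18 lines. Its highest line means were those of b2 (14.3) and Lhx4 (14.1), and the Lhx4 mean rested on replicate 1 at 24.8. Cspg4, the NG2 proteoglycan of pericytes and of oligodendrocyte precursors, was highest in the photoreceptor lines Chrnb4 (12.4) and b2 (11.8) and read 8.63, 8.18 and 9.58 in the Rgs5 line. Pdgfrb ranged from 4.13 to 10.8 over all 78 arrays, and read 5.53, 6.87 and 5.88 in the Rgs5 line. These 3 canonical mural genes therefore showed no elevation in the line in which Rgs5 was highest. A low intensity of a single probe set is a limit of detection and not evidence that the transcript was lacking.

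In the Rgs5 line 6 of the 9 tested genes rose against the mean of the other 21 lines, where 1.15% of all genes tested were called higher. Beside Rgs5 these were Higd1b (log2 difference 4.09, SE 0.24), Acta2 (3.84, SE 0.36), Mgp (3.62, SE 0.31), Kcnj8 (1.93, SE 0.27) and Tagln (1.56, SE 0.27), with adjusted p between 1.7e-20 and 5.3e-05. Myh11 (0.13), Cspg4 (0.10) and Abcc9 (0.04) were not called. The count of 6 includes Rgs5, the gene for which the sorted transgene is named. It also includes Acta2, Tagln and Higd1b, which passed the filter through the sets in which they stood highest. It is therefore not independent of the sort and the filter. The limit set by the filter also holds for the counts given below for other lines and sets. The median difference of the 9 genes was 1.93, against -0.01 for all genes. Among the 11 lines of batch 3 alone the same 6 genes were called, with Rgs5 at 3.35 (adjusted p = 3.4e-05), Acta2 at 3.55, Higd1b at 3.64, Mgp at 3.01, Kcnj8 at 1.75 and Tagln at 1.39. The adjusted p-values of the line and set comparisons rest on how far replicate arrays differ. In bulk samples of this kind, fewer cells of a type and less RNA per cell cannot be told apart.

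In the Grik4 line 5 of the 9 genes rose, where 4.09% of genes were called higher. Mgp rose by 4.25 (SE 0.31), Higd1b by 3.34 (SE 0.24), Rgs5 by 3.03 (SE 0.30), Acta2 by 2.68 (SE 0.36) and Kcnj8 by 2.08 (SE 0.27), with adjusted p from 3.1e-16 to 1.2e-07. Tagln stood 0.95 higher (adjusted p = 0.0084), under the threshold of size, and its replicate 1 was under the floor. It was called without replicate 1 of every set (1.78) and with batch as a term (1.09). The median of the 9 genes was 2.08, against 0.03 for all genes. All 5 calls were also made within batch 3. The Acta2 difference was 4.27 without replicate 1 of every set, 2.04 without replicate 2 and 1.71 without replicate 3, and the Rgs5 difference was 2.26 within batch 3.

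In the Drd4 line 6 genes rose, where 5.21% of genes were called higher. Mgp rose by 3.38 (SE 0.31), Rgs5 by 2.49 (SE 0.30), Acta2 by 1.91 (SE 0.36), Higd1b by 1.88 (SE 0.24), Tagln by 1.38 (SE 0.27) and Kcnj8 by 1.04 (SE 0.27). The median of the 9 genes was 1.38, against 0.11 for all genes. Kcnj8 was not called within batch 3 (0.82, adjusted p = 0.058), with batch as a term or without replicate 1 of every set, and Tagln was not called without replicate 1 (0.81). Acta2 stood at 1.10 without replicate 1 of every set, the replicate that read 72.4, and at 1.52 within batch 3 (adjusted p = 0.045). Within batch 3 Rgs5 stood at 1.70 and Mgp at 2.76.

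In the Crh line 2 genes were called higher, Rgs5 (1.81, SE 0.30) and Higd1b (1.04, SE 0.24), where 6.28% of genes were called higher. The median of the 9 genes was 0.37, against 0.11 for all genes. Without replicate 1 of every set Higd1b stood at 1.81 and Tagln was called (1.02), and Myh11 was called lower (-1.31). Higd1b was not called without replicate 2 (0.52) or without replicate 3 (0.78). Within batch 3 neither Rgs5 nor Higd1b was called, with differences of 0.98 (adjusted p = 0.094) and 0.43 (adjusted p = 0.29). Kcnj8 stood 0.74 higher and Myh11 0.92 lower in this line, both with an adjusted p below 0.05 and both under the threshold of size, as were Cspg4 (-0.66) and Abcc9 (0.37).

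**Figure D2:**
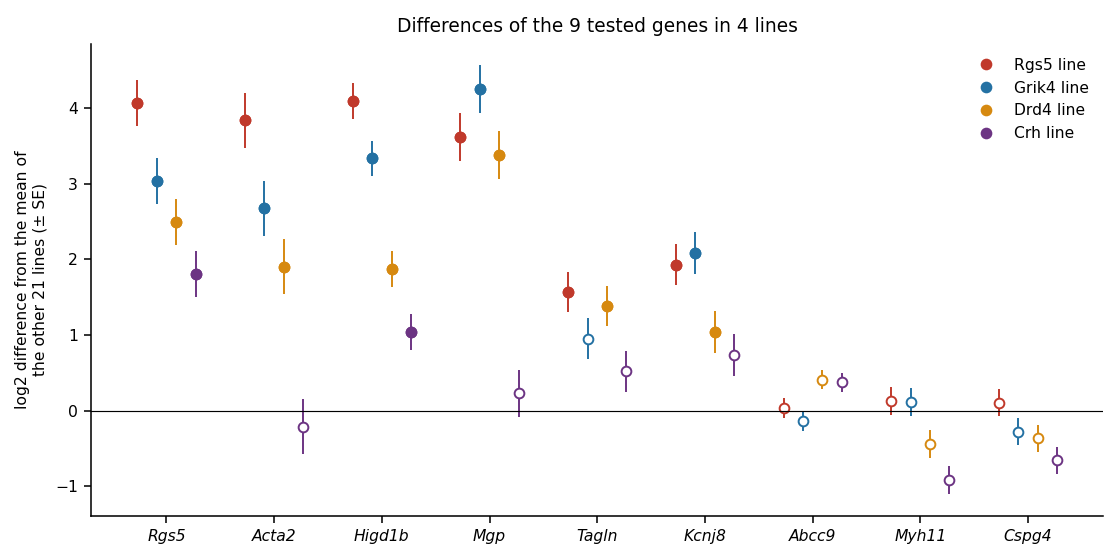
Log2 difference from the mean of the other 21 lines (points, with SE as bars) for the 9 tested genes in the Rgs5, Grik4, Drd4 and Crh lines; filled points are called, open points are not. Rgs5 is called in all 4 lines, Acta2, Mgp and Kcnj8 in 3, and Abcc9, Myh11 and Cspg4 in none of them.

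None of the 9 tested genes was called higher in the other 18 lines. In these lines from 127 (Fam81a) to 1221 (Csf2rb2) of 15102 genes were called higher. At such shares the lack of a call among 9 genes is not a result about these genes. Kcnj8 in Pcp2 lay just under the threshold of size (0.99, adjusted p = 0.013), and it was called within batch 1 (1.10), without replicate 1 of every set (1.36) and without the 6 arrays that correlated least (1.00). There were 4 lower calls, all near the threshold, against a mean that includes the high lines named above. Rgs5 fell in b2 by 1.05 (6.19 against 12.8, where 9.03% of genes were called lower), in Kcng4 by 1.07 (1.21% called lower) and in Fbxo32 by 1.11 (0.464% called lower). Kcnj8 fell in Chrna3 by 1.13 (5.95% called lower), where the arrays read between 5.47 and 8.55. With batch as a term, a fit that left out Fbxo32 and d4 for lack of a batch label and took Arc 2nd as batch 2, 3 of the 4 calls could be tested and 1 was made, that of Kcng4. Among lines of the same batch 12 lower calls were made, all in batch 3, where the mean again includes the high lines named above. The share of all genes called lower within a batch was not counted, so this number has no background beside it. Rgs5 in Kcng4 stood at -2.04 against that mean. The b2 and Chrna3 calls were lost without replicate 1 of every set, and the Kcng4 and Fbxo32 calls without replicate 2 or without replicate 3.

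Set against the green amacrine sets of the same batch label, Arc 3rd and Igfbp2, the Rgs5 line was higher for the same 6 genes, where 0.43% of genes tested were called higher. Rgs5 read 18.9, 11.3 and 10.9 in Arc 3rd and 6.14, 7.36 and 6.98 in Igfbp2. The log2 differences were 4.37 for Higd1b (SE 0.28), 4.28 for Mgp (SE 0.38), 4.27 for Rgs5 (SE 0.37), 4.10 for Acta2 (SE 0.44), 2.25 for Kcnj8 (SE 0.33) and 1.94 for Tagln (SE 0.32). For each of these 6 genes all 3 arrays of the Rgs5 line lay above all 6 arrays of the other sets. With values raised to the floor the Tagln difference was 1.80. For 2 of 4 amacrine markers all 3 arrays of the Rgs5 line lay below all 6 arrays of these sets, Gad1 at 167 to 185 against 200.4 to 354 and Tfap2a at 16.3 to 27.7 against 29.8 to 41.5. Slc32a1 lay above them at 456 to 520, against 374 to 446, and Pax6 overlapped. The summed intensity of Slc32a1, Gad1, Pax6 and Tfap2a was 907 to 953, against 942 to 1078 in Arc 3rd and 790 to 939 in Igfbp2, and 0 of these 4 differed by the test, which does not show that they were equal.

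The Rgs5, Grik4 and Drd4 lines were then compared with each other, a comparison chosen after their values were seen. Between the Rgs5 and Grik4 lines 0 of the 9 genes were called, where 5.56% of genes differed in either direction. Rgs5 stood 0.99 higher in the Rgs5 line (SE 0.42, adjusted p = 0.17), Acta2 1.11 higher (SE 0.50, adjusted p = 0.20) and Higd1b 0.72 higher (SE 0.33, adjusted p = 0.19), each with an unadjusted p below 0.05. Between the Rgs5 and Drd4 lines 3 genes were higher in the Rgs5 line, where 12.4% of genes differed, namely Higd1b by 2.12 (SE 0.33), Acta2 by 1.85 (SE 0.50) and Rgs5 by 1.502 (SE 0.42). Between Grik4 and Drd4 1 gene differed, Higd1b, by 1.39 (SE 0.33) with Grik4 higher, where 2.47% of genes differed. Without replicate 2 or without replicate 3 of every set the Rgs5 and Acta2 calls against Drd4 and the Higd1b call between Grik4 and Drd4 were lost. Without replicate 1 the Acta2 difference between Rgs5 and Drd4 was 2.63, and without replicate 3 it was 1.24. Mgp stood 0.60 lower in the Rgs5 line than in Grik4 and 0.23 higher than in Drd4, without a call in either.

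Further mural genes were counted in lists of known pericyte and smooth muscle genes. Of 13 other pericyte genes tested, 2 rose in the Rgs5 line. Gja4, which encodes the gap junction protein connexin 37, rose by 3.23 (SE 0.30), and read 80.8, 146 and 76.9. Vtn, which encodes vitronectin and is made by pericytes and by photoreceptors, read 294, 310 and 314 in the Rgs5 line and rose by 4.37 with values raised to the floor. The 3 Arc 3rd arrays and the 3 Igfbp2 arrays were all below the floor for Vtn, so that the log2 difference of the Rgs5 line from them is at least 6.26. Vtn read from 821 to 1069 in the b2 1st rod set, while the rod gene Gnat1 was below the floor in all 3 arrays of the Rgs5 line. Which cells the Vtn signal of the Rgs5 line came from was not tested. The median difference of the 13 genes was 0.31, and Notch3, Foxs1, Heyl, Ndufa4l2, Cox4i2 and Atp13a5 were among those not called.

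Of 14 other smooth muscle genes tested, 2 rose in the Rgs5 line, with a median difference of 0.08 over the 14. Myl9, a regulatory light chain of myosin, rose by 3.10 (SE 0.26) and read 73.7, 35.6 and 86.2. Crip1, a small LIM protein, rose by 3.04 (SE 0.40). In the Grik4 line Gja4 rose by 2.92 and Art3 by 1.65 among the pericyte genes, and Myl9 by 3.13, Crip1 by 2.26 and Pln, an inhibitor of the calcium pump, by 1.03 among the smooth muscle genes, while Lmod1 fell by 1.06 (by 0.81 with values raised to the floor). In the Drd4 line Foxc1 and Gja4 rose by 1.01 and 1.00 and Mcam fell by 1.72 among the pericyte genes (with values raised to the floor, Foxc1 stood at 0.99 and Mcam at -1.29), and Crip1 rose by 2.31, Tpm1 by 1.63 and Myl9 by 1.504 among the smooth muscle genes. Gja4, Myl9 and Crip1 were thus called in all 3 lines. Against Arc 3rd and Igfbp2 the Rgs5 line was again higher for Gja4 (3.46), Vtn, Myl9 (3.26) and Crip1 (3.66), and it was lower for Tpm1, a tropomyosin, by 1.35. In the Crh line Vtn was the only gene of these lists called higher, and it read 0.47, 892 and 219. The rod gene Gnat1 read 197, 2362 and 1277 in the same arrays, highest in the replicate with the highest Vtn, and its part in the Vtn result was not tested. In this line Mcam, Crip1, Lmod1 and Mustn1 fell.

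None of 7 tested genes of platelet-derived growth factor and angiopoietin signalling rose in the Rgs5, Grik4 or Drd4 lines, and Pdgfa, which encodes a ligand of this family, fell by 1.06 in Drd4 (0.90 with values raised to the floor). Neither of the channel genes related to Kcnj8 and Abcc9, Kcnj11 and Abcc8, was called in these lines. Among 4 relatives of Rgs5, Rgs2 was called in all 3, with differences of 1.51 in the Rgs5 line, 2.03 in Grik4 and 1.04 in Drd4, and Rgs4, Rgs8 and Rgs16 were not. A high Rgs2 was not particular to these lines. Its mean was highest in the Csf2rb2 microglia (361), and the PV ganglion line (141) stood above Drd4 (127).

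Markers of other cells moved with the mural genes in some lines and not in others. Of 11 endothelial genes tested, 0 were called in the Rgs5 line by limma, 7 rose in Grik4, 5 in Drd4 and 1 in Crh. The summed intensity of 13 endothelial genes was 126 to 210 in the Rgs5 line, 765 to 1461 in Grik4, 283 to 848 in Drd4 and 135 to 458 in Crh, against a median of 131 and a range of 102 to 327 in the other 18 lines. Cldn5, the claudin of endothelial tight junctions, read 20.7, 80.9 and 10.3 in the Rgs5 line, 755, 943 and 443 in Grik4 and 522, 241 and 99.3 in Drd4. Against Grik4 the Rgs5 line was lower for 7 of the 11 genes (Cldn5 by 4.72, Slco1a4 by 2.94, Esam by 2.33 and Emcn by 2.01), and against Drd4 for 5 (Cldn5 by 3.17). In replicate 2 of the Rgs5 line, where Cldn5 was highest, Rgs5 was the lowest of the 3 arrays (171), and Higd1b (181) and Gja4 (146) were the highest. The part of endothelial RNA in these results was not tested.

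In the Rgs5 line 2 arrays had high Rgs5 with Cldn5 at 20.7 and 10.3, while replicate 2 had Cldn5 at 80.9. The Cldn5 mean of this line was 25.9, above the median of 8.34 over the 26 set means, though without a call. Crh replicate 1 had Rgs5 at 22.0 and Cldn5 at 7.10. Lhx4 replicate 1 had Rgs5 at 70.6 and Cldn5 at 86.8, Opn4 replicate 1 had 30.3 and 100, and Crh replicate 2 had 83.5 and 194. Over the 26 set means the correlation with Cldn5 was 0.89 for Mgp, 0.80 for Rgs5, 0.79 for Higd1b and 0.77 for Kcnj8. It was 0.75 for Tagln, 0.73 for Acta2 and 0.34 for Abcc9, and negative for Myh11 (-0.26) and Cspg4 (-0.45). These values describe sets that share arrays for both genes.

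**Figure D3:**
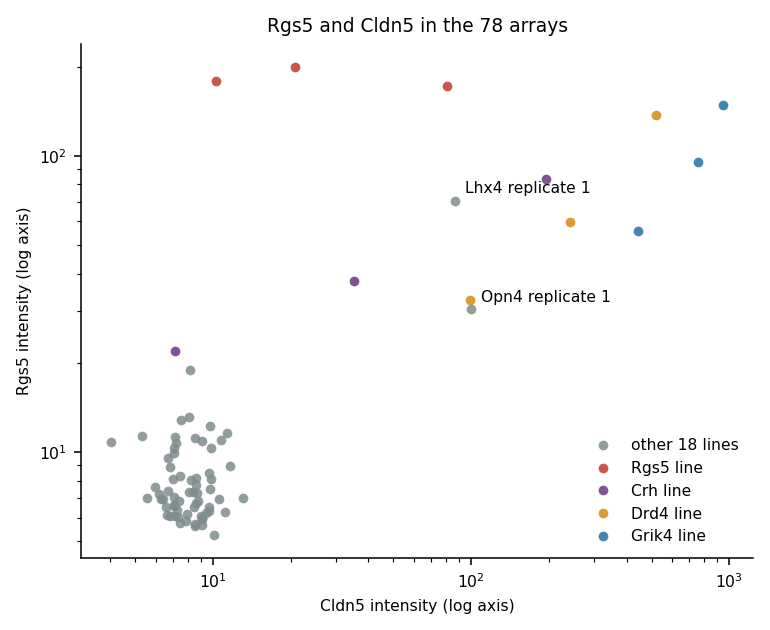
Rgs5 against Cldn5 intensity (both log axes) in the 78 arrays, coloured by line. The 3 Rgs5 line arrays lie at Rgs5 171 to 199 with Cldn5 10.3 to 80.9, whereas the Grik4 and Drd4 arrays lie at Rgs5 32.6 to 148 with Cldn5 from 99.3 to 943.

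The other marker lists were also uneven. In Grik4 5 of 6 microglial genes rose (C1qa by 3.55, Tyrobp by 3.38), 3 of 6 pigment epithelium genes rose (Rgr by 3.93, Rpe65 by 4.00, Ttr by 6.29), and 3 of 8 Müller glia genes rose (Rlbp1 by 3.71). In Drd4 6 of 8 Müller glia genes rose (Rlbp1 by 4.78, Glul by 3.90), as did 2 of 3 astrocyte genes. In the Rgs5 line 1 of 8 Müller glia genes rose, Dkk3 by 2.13, and 0 of 6 fibroblast genes, 0 of 3 astrocyte genes and 0 of 6 epithelial genes were called, while 2 of 6 microglial genes fell. All 4 ganglion cell markers rose in Grik4 and in Drd4, and 3 of 4 amacrine markers (Slc32a1, Gad1 and Pax6) rose in the Rgs5 line. In Drd4 replicate 1, which had the highest Rgs5, Acta2, Mgp and Tagln of that line, the rod gene Gnat1 read 1218 (191 and 22.3 in the others), and the bipolar genes Cabp5 and Otx2 read 614 (155 and 127) and 79.0 (19.9 and 17.1). By the test 1 of 3 rod and 1 of 3 bipolar genes rose in Drd4, and 1 of 3 rod genes fell in the Rgs5 line. The part of these other cells in the mural gene results was not tested.

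**Figure D4:**
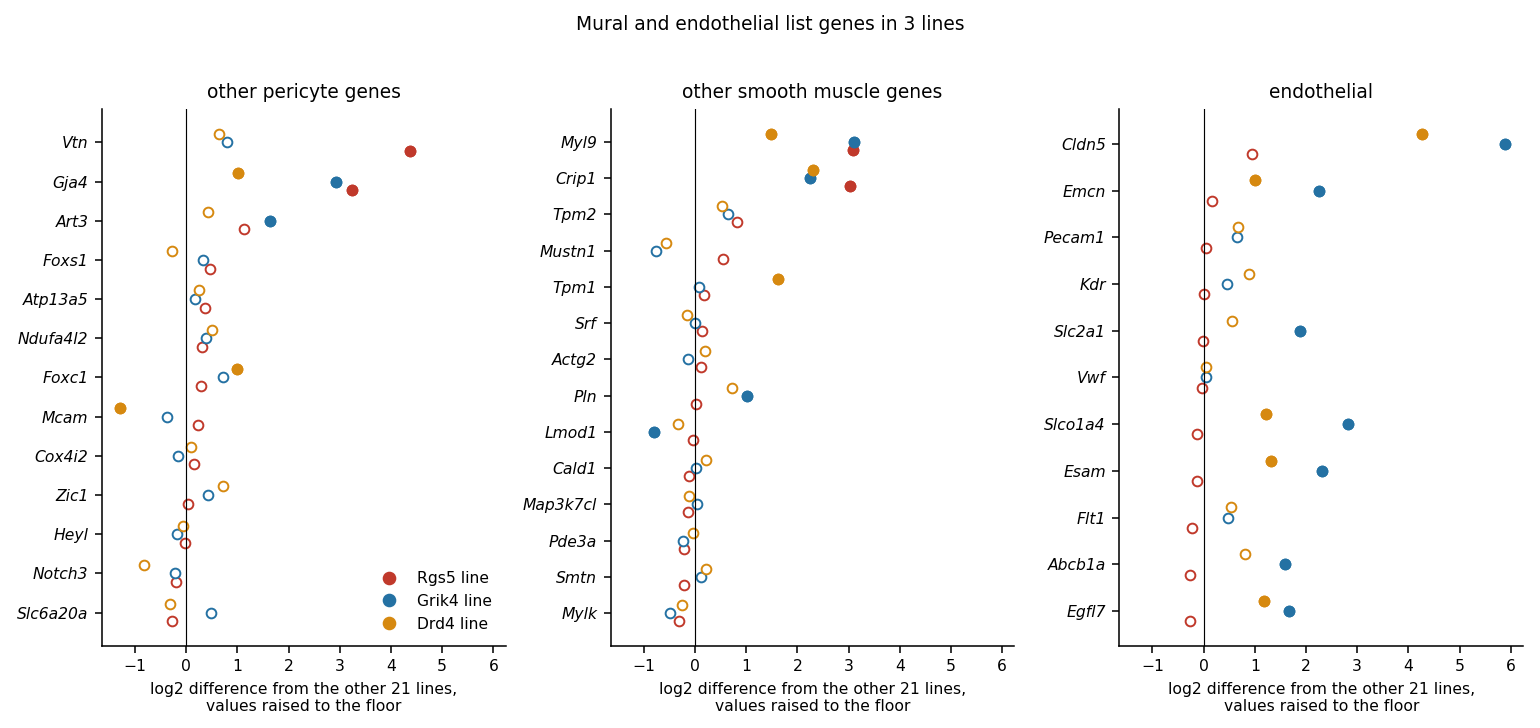
Log2 difference from the other 21 lines, with values raised to the floor, of the tested genes of the pericyte, smooth muscle and endothelial lists in the Rgs5, Grik4 and Drd4 lines; filled points are called on the values as deposited. Gja4, Myl9 and Crip1 lie to the right in all 3 lines, while Cldn5 and other endothelial genes are called in Grik4 and Drd4 and not in the Rgs5 line.

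The genes that varied widely did so together over the sets. Among Rgs5, Acta2, Higd1b, Mgp, Tagln and Kcnj8 the pairwise correlation over 26 set means lay between 0.79 for Rgs5 with Kcnj8 and 0.96 for Acta2 with Higd1b. It rested on the 4 high sets: over the other 22 sets Rgs5 with Acta2 had a correlation of -0.10, Acta2 with Higd1b -0.21 and Rgs5 with Mgp 0.65. Myh11 and Cspg4 had a correlation of 0.70 with each other over 26 sets, and of 0.04 and -0.09 with Kcnj8. Over the 22 sets the correlation of Myh11 was 0.58 with Cspg4 and 0.68 with Kcnj8, and that of Cspg4 with Kcnj8 was 0.53. The genes most like the mean of the 9 tested were Aspn (0.91), Gja4 (0.88), Myl9 (0.86), Edn1 (0.85), Itga1 (0.83), Rarres2 (0.82), Tmem114 (0.78), Crip1 (0.76), Cldn5 (0.76) and Pdlim1 (0.75), by Pearson's r over the same 26 sets. Their rank correlations with that mean were lower, from 0.13 for Myl9 to 0.70 for Edn1. Those nearest to Rgs5 alone were Myl9, Higd1b and Aspn, those nearest to Acta2 were Higd1b, Gja4 and Mgp, and those nearest to Mgp were Aspn, Myl9 and Acta2.

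The 9 tested genes were also compared between repeated sets of a line. In the 6 pairs of sets of Arc and of b2, 0 of 54 comparisons were called by limma, 0 had an unadjusted p below 0.05, and the largest log2 difference was 0.50. In the Arc pairs 0.053% (1st against 2nd), 0.457% (1st against 3rd) and 0.0728% (2nd against 3rd) of genes tested differed. In the b2 pairs the shares were 2.08% (1st against 2nd), 1.19% (1st against single) and 2.03% (2nd against single).

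Taking lines as the unit, 0 of the 9 genes were called in any of the 6 classes by limma, and 3 of 54 comparisons had an unadjusted p below 0.05. These were Mgp and Higd1b in ganglion lines (2.08, SE 0.79, adjusted p = 0.10, and 1.54, SE 0.73, adjusted p = 0.18) and Cspg4 in photoreceptor lines (0.51, SE 0.16, adjusted p = 0.042), which missed the threshold of size. The shares of all genes called in either direction were 6.36% for photoreceptor, 1.21% for horizontal, 2.66% for bipolar, 2.77% for amacrine, 4.23% for ganglion and 9.32% for microglia. Within the ganglion class 5 of the 9 genes were called higher in Grik4 and 6 in Drd4, and 0 in the other 2 lines.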

How the data were processed

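Affymetrix Mouse Gene ST arrays were hybridized with RNA of 200 sorted cells each (78 arrays, 22347 probe sets). Per the submitters' processing notes the data were handled with oligo, RMA, R 2.11.1 and build mm9; their settings are not given in the sources used here. The deposited table holds linear intensity values, normalized by the authors to identical distributions. The design had assumed log2 values, so log2 was taken of them. Probe sets with 1 gene symbol were kept (19446), with the highest mean per gene, which gave 19301 genes. In 70 arrays the lowest values, at least 10 in a run, stood in order of identifier. The highest value at which such a run ended, 3.99, was taken as the floor for all arrays.

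limma 3.58.1 in R 4.3.3 fitted 1 mean per set with a trend in the prior variance, over 15102 genes. Each line was contrasted with the unweighted mean of the other 21 lines, and classes were compared over 22 line means. Equal replicate numbers did not pair the samples (mean residual correlation 0.000207). Plots were drawn with matplotlib 3.10.9. The genes and lists were chosen with earlier results of these data known. All 10 genes are named. List genes are named where called in a line with 3 or more of the 10 called higher, at most the 6 largest per list, with genes that were not called added as examples after their values were seen. Outside this rule, list genes called in the Crh line, where 2 of the 10 were called higher, are also named. The 10 most alike genes follow Pearson's r over set means. Fits were tested on simulated data. Alternatives covered the filter, floor, normalization, trend, probe set rule, batch, replicate block and left-out replicates.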

Additional observations from a re-analysis of the deposited data

Results flagged for a closer look

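Line means within a class, and arrays within the Arc and b2 lines, were examined for a value far from the rest in 50 groups, and 8 stood out. In independent groups chance gives about 1 in 20. These groups share lines and arrays and hold genes that vary together, so the 8 are not a test against chance. Among the 4 bipolar lines Lhx4 stood apart for Rgs5 (19.1, next 7.42) and for Mgp (14.4, next 6.86), both through replicate 1. Among the 9 amacrine lines the Rgs5 line stood apart for Acta2 (94.0, next 6.44), Higd1b (138, next 18.3), Mgp (130.2, next 13.8) and Tagln (15.6, next 7.81). Among the 4 ganglion lines Drd4 stood apart for Abcc9 (10.6, next 7.37), which is a small difference. Among the 9 b2 arrays replicate 3 of the 2nd set was low for Pdgfrb (4.13, next 5.48), a gene under the filter on dim values.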

How the results depend on the processing

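The 19 higher calls over the 22 lines numbered 17 to 20 under every alternative run (18 to 20 without 1 replicate of every set), the 6 calls against Arc 3rd and Igfbp2 stayed 6, and the 0 calls between repeated sets and over classes stayed 0. With the replicate block there were again 19 higher calls and Rgs5 in the Rgs5 line differed by 4.07; the block changed no call. That difference ranged from 3.35 within batch 3 to 4.13 without the 6 arrays that correlated least, an alternative chosen after seeing the data. Of 361 values of single genes under the alternatives, 333 stayed on their side of the threshold, 28 lost the call and 0 turned sign. The losses fell on the lower calls, on Crh, on Kcnj8 and Tagln in Drd4 and on comparisons with Drd4. The cause was not tested. Higher calls were gained for Kcnj8 in Pcp2 and for Tagln in Grik4 and Crh. The fit with batch as a term covered 20 of the 22 lines. The lowest set mean, Tagln in Arc 3rd, was 3.66 and became 4.34 with values raised to the floor. Within the Rgs5, Grik4 and Drd4 lines the number of arrays, 3 a set, limits the precision.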
